A study of Homo sapiens with 5 samples.

Results

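A set of 22 protein-coding genes was low in control cells of the glioblastoma line U87 MG and higher in every library of CD133-positive cells sorted from that line. The genes were chosen by their values: under 1 CPM (the usual scaling of a gene's count by the total count of its library) in both control libraries and at least 3 CPM in all 3 sorted libraries. Genes of the sex chromosomes were left out. Of the 46427 genes of the deposited table, 19672 were protein-coding, 7615 of these were under 1 CPM in both controls, and 24 of those reached 3 CPM in every sorted library. Leaving out 2 genes on X or Y gave the 22 members, out of 18778 protein-coding genes not placed on X or Y. These are called autosomal below and include 154 without a known position. The opposite rule, at least 3 CPM in both controls and under 1 CPM in all sorted libraries, held for 49 genes. In CPM 44.5% of the genes tested below were lower in every sorted library than in both controls and 10.7% higher. The opposite rule was not tried with other scalings, so 49 and 22 are not compared. Because these values chose the members, their levels and differences are given as a description, with no test.

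The working name of the set, genes switched on in sorted cells, held strictly for few of them. SLPI and ITGAD had 0 counts in both controls. SNCG, COL4A1 and DENND2A had 0 counts in 1 control, and the other 17 had counts in both, so most members were low rather than absent in the controls. Summed over the 22 genes, the controls held 229 and 314 counts and the sorted libraries 4026, 5116 and 4589.

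Total RNA was sequenced in 5 libraries, all from U87 MG, an established human line derived from a malignant glioma. The 2 control libraries, numbered 2 and 3 in the labels, came from the line with no treatment. The 3 sorted libraries, numbered 1 to 3, came from cells of the line labelled cancer stem cells and CD133 positive, CD133 being the surface protein encoded by PROM1 that is used to sort stem-like glioma cells. The titles of the sorted libraries also carry the code f2n11, which the labels do not explain and which no control title has, so whatever it stands for cannot be told apart from the sort. No sorted CD133-negative cells are among the samples, so the sort itself and the CD133 status cannot be told apart, and the labels do not say whether the libraries of a group came from separate cultures. P-values therefore measure the spread between these libraries, which may be technical, and in such bulk samples more cells with a transcript cannot be told apart from more transcript per cell.

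Depth was 17716823 to 29841238 counts per library, so 3 counts, taken as the limit that a count of 0 allows, equalled 0.101 to 0.169 CPM. PROM1 itself had 12 and 0 counts in controls 2 and 3, and 7, 0 and 0 counts in sorted libraries 1 to 3, so the sort marker was not higher in the sorted libraries at the RNA level at this depth. The third sorted library stood apart: the 7SL RNA genes took 24.4% of its counts, against 10.9% and 12.01% in the other sorted libraries and 5.71% to 6.29% in the controls, and protein-coding genes took 60.9% against 72.6% to 82.5%. Markers of the glioma line were present in every library, among them TNC at 475 to 2281 CPM and CAV1 at 821 to 1563 CPM.

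As background, the members come from unlike families. Several encode proteins of leukocytes and antigen-presenting cells or their ligands. HLA-DO is a chaperone of the major histocompatibility complex (MHC) class II pathway. Integrins are paired adhesion receptors of an alpha and a beta chain, and ICAM proteins are ligands of leukocyte integrins. Others encode secreted or basement membrane proteins, receptors for lipid mediators, keratin and claudin proteins of epithelia, and proteins of microtubules and cilia. Genes that a cell line does not use often carry methylated or CpG-poor promoters, whereas genes used in most tissues usually start in CpG islands, stretches where the CG dinucleotide is not depleted.

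Levels in the sorted libraries were low to moderate. The mean over the 3 sorted libraries ran from 3.64 CPM for TSPAN15 to 39.7 CPM for HLA-DOA with a median of 5.61 CPM, 5 members reached 10 CPM and 9 stayed under 5 CPM. The median control level was 0.423 CPM. Per transcript length, as the authors' TPM (a level that is also scaled by transcript length), mean sorted levels ran from 0.517 TPM for GALNT15 to 21.4 TPM for CLEC3B with a median of 2.04 TPM, and 4 members were under 1 TPM. Of the 9236 protein-coding autosomal genes with at least 3 CPM in all sorted libraries, the members made up 0.238%. These genes had a median of 7.61 TPM, only 4 members lay above it, and the median member stood at percentile 12.7.

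**Figure D1:**
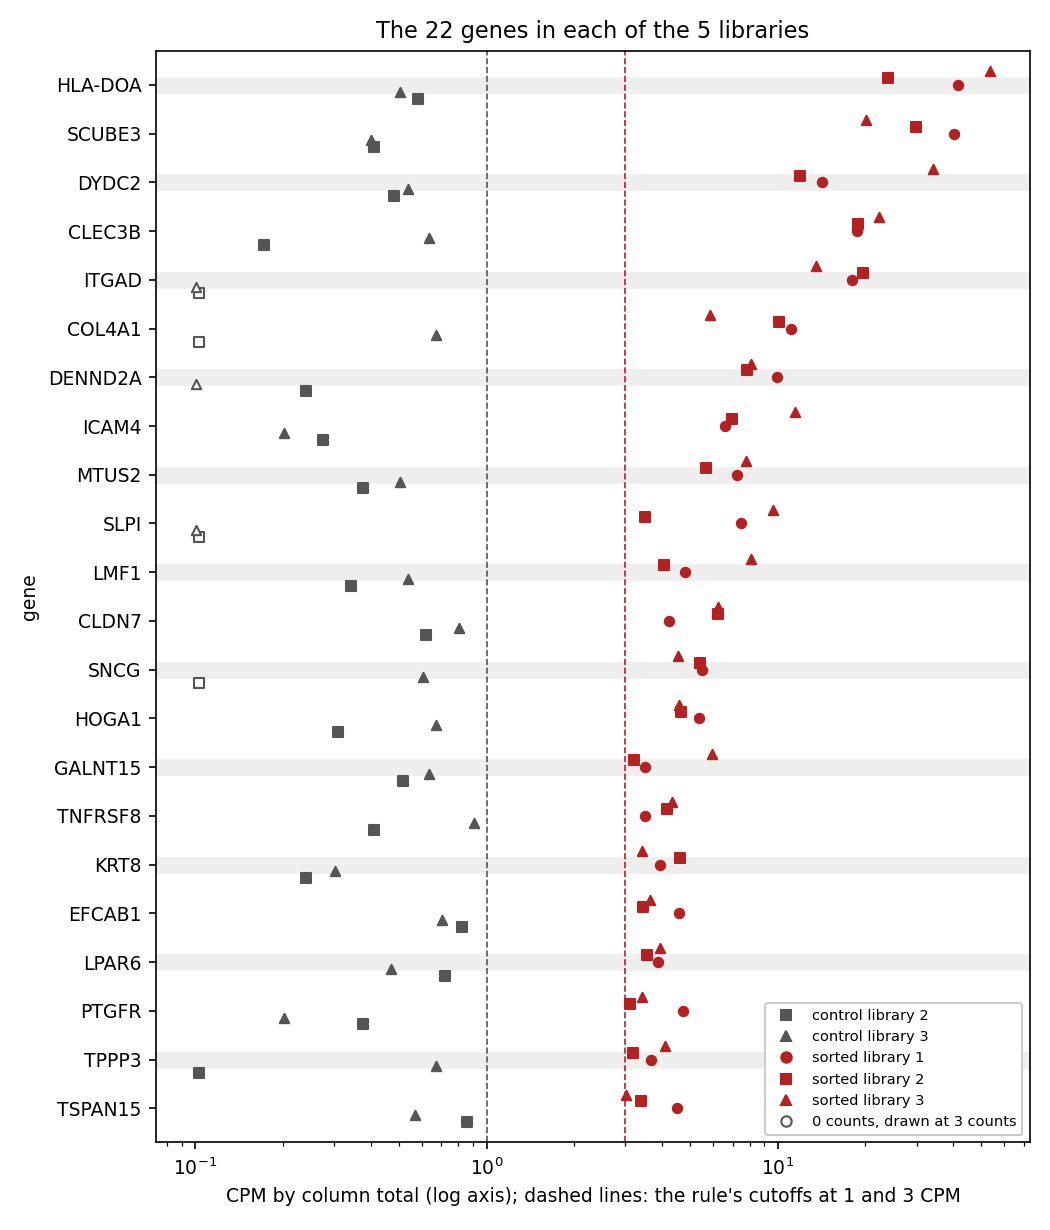
CPM of each of the 22 members in the 2 control and 3 sorted libraries on a log axis, 1 point per library, with the cutoffs of the rule at 1 and 3 CPM as lines. Every control point lies below 1 CPM and every sorted point at or above 3 CPM because the rule chose the genes so, and HLA-DOA and SCUBE3 have the highest sorted means.

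In the edgeR quasi-likelihood test over 16304 genes, 359 genes were higher in sorted cells at an adjusted p under 0.05, which is 2.2% of those tested, and 392 were lower, which is 2.4%. Of the members 19 were among the higher genes, and since the rule used the same libraries nothing is read from that count. The members that missed the threshold were SNCG, TPPP3 and COL4A1, each with 1 control at or near 0 and the other above 0.6 CPM. The calls changed when a library was left out. A fit with fewer libraries also has less power, so lost calls alone do not show that the calls rested on 1 library. Leaving out either control leaves 1 control library, and the calls of such a fit are not read. Without sorted library 1 edgeR called 0 genes in either direction, although 1632 genes were higher and 2109 lower at an unadjusted p under 0.05. Without sorted library 2 it called 12 higher and 7 lower, and without sorted library 3 it called 2477 higher, 15.4% of 16038, and 2695 lower. Every adjusted p below carries that limit. In CPM 44.5% of all tested genes were lower in every sorted library than in both controls and 10.7% higher, so a lower CPM alone sets no gene apart. With no library left out, 1997 of the 16304 genes were higher and 2211 lower at an unadjusted p under 0.05 in edgeR. DESeq2 called 1429 genes higher and 1331 lower. Counts of list genes and neighbors given below at those settings are to be read beside these totals.

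The letters around the start sites of 6 members show the range of promoter types in the set. A 300-base window, 250 bases before to 50 bases after a start site, was available from RefSeq (GRCh38.p14) for 17 of the 22 members. The first 4 windows are CpG-poor and the last 2 CpG-rich, all are printed 5′ to 3′ on the gene's own strand, and capitals mark each CG dinucleotide. HLA-DOA lies at chr6:33009542-33009841 on the minus strand, ICAM4 at chr19:10286705-10287004 on the plus strand, HOGA1 at chr10:97584139-97584438 on the plus strand and SNCG at chr10:86955509-86955808 on the plus strand. COL4A1 lies at chr13:110307108-110307407 on the minus strand. MTUS2 lies at chr13:28820089-28820388 on the plus strand, around a start 376 bp inside the outermost start of the gene.
HLA-DOA: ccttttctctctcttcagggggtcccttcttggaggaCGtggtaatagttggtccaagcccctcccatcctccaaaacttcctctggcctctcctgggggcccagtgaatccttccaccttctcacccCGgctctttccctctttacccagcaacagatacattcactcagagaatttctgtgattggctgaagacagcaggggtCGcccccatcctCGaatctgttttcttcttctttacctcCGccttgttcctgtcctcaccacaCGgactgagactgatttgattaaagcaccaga
ICAM4: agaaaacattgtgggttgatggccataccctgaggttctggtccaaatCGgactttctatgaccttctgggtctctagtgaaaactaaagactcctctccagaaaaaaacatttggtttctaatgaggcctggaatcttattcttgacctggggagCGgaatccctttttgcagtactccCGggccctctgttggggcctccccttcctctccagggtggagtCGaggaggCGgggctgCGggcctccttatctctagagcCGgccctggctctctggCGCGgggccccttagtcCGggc
HOGA1: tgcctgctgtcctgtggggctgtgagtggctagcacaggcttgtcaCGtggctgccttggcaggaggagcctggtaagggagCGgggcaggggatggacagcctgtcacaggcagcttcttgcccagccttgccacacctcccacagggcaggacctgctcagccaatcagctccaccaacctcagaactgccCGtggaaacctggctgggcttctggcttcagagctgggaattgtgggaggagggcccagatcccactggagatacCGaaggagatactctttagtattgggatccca
SNCG: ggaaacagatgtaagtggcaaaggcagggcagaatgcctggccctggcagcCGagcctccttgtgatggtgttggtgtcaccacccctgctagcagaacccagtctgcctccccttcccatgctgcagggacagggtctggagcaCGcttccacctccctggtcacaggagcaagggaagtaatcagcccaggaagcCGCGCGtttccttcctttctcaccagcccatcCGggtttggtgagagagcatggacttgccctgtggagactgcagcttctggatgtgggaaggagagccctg
COL4A1: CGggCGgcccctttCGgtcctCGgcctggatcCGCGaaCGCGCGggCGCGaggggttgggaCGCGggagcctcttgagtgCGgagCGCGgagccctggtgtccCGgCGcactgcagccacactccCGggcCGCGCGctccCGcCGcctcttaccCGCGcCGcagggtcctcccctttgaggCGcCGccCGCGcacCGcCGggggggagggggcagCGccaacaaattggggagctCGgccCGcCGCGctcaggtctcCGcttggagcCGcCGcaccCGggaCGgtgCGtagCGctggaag
MTUS2: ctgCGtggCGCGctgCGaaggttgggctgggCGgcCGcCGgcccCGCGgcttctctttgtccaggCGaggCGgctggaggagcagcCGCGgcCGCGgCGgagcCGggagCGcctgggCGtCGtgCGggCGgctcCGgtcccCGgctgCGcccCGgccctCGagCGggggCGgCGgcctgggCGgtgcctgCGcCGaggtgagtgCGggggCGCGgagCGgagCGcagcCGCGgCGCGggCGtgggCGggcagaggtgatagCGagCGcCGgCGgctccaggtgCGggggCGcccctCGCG

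CpG dinucleotides were sparse in most of these windows. HOGA1 held 4 and HLA-DOA 6, against 45 in COL4A1 and 52 in MTUS2. The ratio of observed to expected CG, which corrects for base composition, had a median of 0.414 over the 17 members, from 0.111 for KRT8 to 1.06 for MTUS2. Over the 14779 protein-coding autosomal promoters of the table the median was 0.771. Genes that, like the members, were under 1 CPM in both controls had a median of 0.363 (5194 promoters), and genes with at least 3 CPM in all 5 libraries had 0.856 (7583 promoters). A ratio of at least 0.6 was found for 5 of 17 members, 29.4%, close to the 35.6% of genes under 1 CPM in both controls and below the 67.0% of all promoters. By this measure the members resembled other genes that were low in control cells, and no test was made because the low control level was part of the rule. The 5 CpG-rich members were LMF1, DYDC2, DENND2A, COL4A1 and MTUS2. The windows of DYDC2, DENND2A, KRT8, LMF1, LPAR6 and MTUS2 sit at a start other than the outermost one of the gene, so they may not be the start used here.

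**Figure D2:**
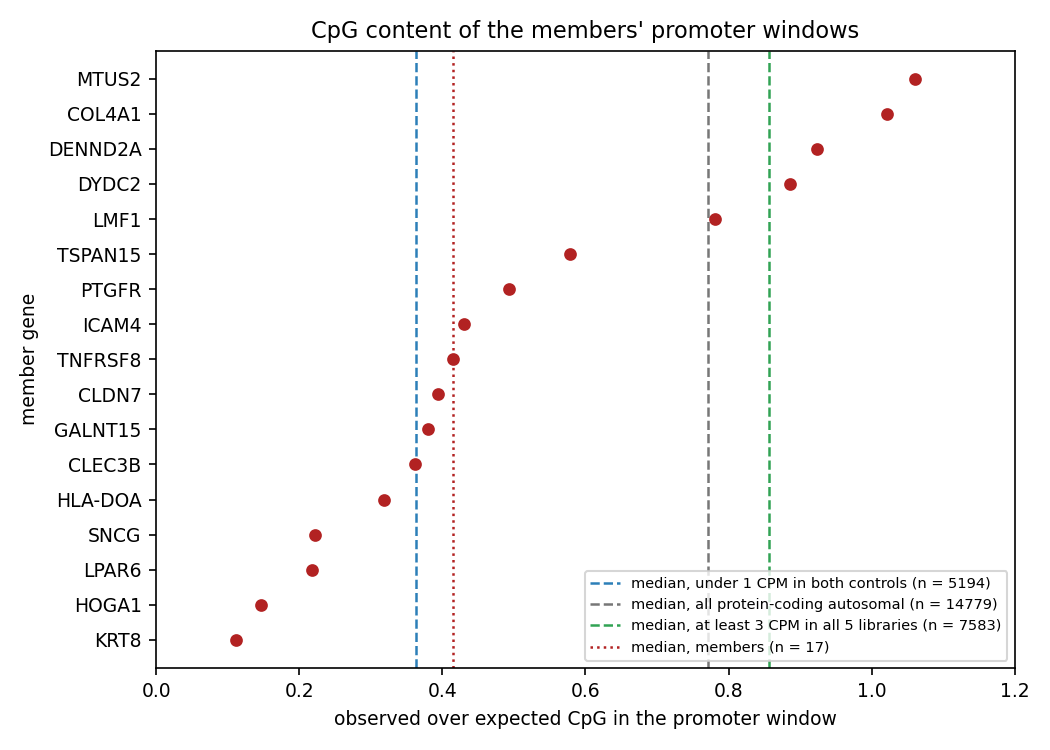
Observed over expected CpG ratio in the 300-base promoter window of 17 members, 1 point each, with lines at the medians of the members (0.414), of all protein-coding autosomal promoters (0.771), of genes under 1 CPM in both controls (0.363) and of genes with at least 3 CPM in all 5 libraries (0.856). Of the members 12 lie below 0.6.

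Short motifs known to bind general and inducible factors were counted in the same windows. Both strands were searched for exact letters. The CCAAT box (CCAAT) was in 6 of 17 members (35.3%) and 36.1% of all windows, the GC box (GGGCGG) in 8 members (47.1%) and 59.4%, and the E box CACGTG in 2 members (11.8%) and 8.83%. TATAAA was in 0 members and 9.66% of all windows, TGACTCA in 1 member and 3.65%, TGACGTCA in 0 members and 2.68%, and CATTCC in 2 members (11.8%) and 11.6%. A match is a run of letters and not a site shown to be bound.

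The member with the highest sorted level belongs to the immune proteins. HLA-DOA (gene ID 3111, chr6:33004182-33009591), the alpha chain of HLA-DO, which tempers peptide loading by HLA-DM, had 0.583 and 0.503 CPM in controls 2 and 3 and 41.7, 23.9 and 53.6 CPM in sorted libraries 1 to 3. Its sorted mean was 39.7 ± 14.96 CPM (SD, n = 3), and pooled over libraries the ratio of sorted to control was 69.3, with a 95% counting interval of 49.0 to 102. Here and below such an interval covers counting error alone and not the spread between libraries. Because the rule chose these values, none of these intervals is a test. The lowest sorted library was still far above both controls. HLA-DOB, the beta chain with which HLA-DOA pairs, did not match it, at 0.343 and 0 CPM in controls and 1.24, 0.402 and 1.16 CPM in sorted libraries (edgeR adjusted p = 0.302).

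Most genes of the MHC class II pathway around HLA-DOA rose in the sorted libraries. Of the other 16 class II chains and regulators tested, 9 rose and 0 fell by edgeR (12 higher and 0 lower at an unadjusted p under 0.05, 11 and 0 by DESeq2), with a median log2 fold change of 3.05 against -0.00 over all tested genes. CD74, the invariant chain that escorts class II molecules, had 31.4 and 28.5 CPM in controls and 414, 303 and 290.4 CPM in sorted libraries (log2 fold change 3.90 ± 0.27 SE, adjusted p = 0.00781, edgeR). HLA-DQA1, an antigen-presenting alpha chain, went from 1.75 and 1.47 CPM to 54.4, 31.5 and 59.3 CPM (log2 fold change 5.38 ± 0.54 SE, edgeR adjusted p = 0.0147). CD74 was well above 1 CPM in the controls, and HLA-DQA1 was just above it. CIITA, the master regulator of class II transcription, overlapped between groups, with 10.9 and 7.88 CPM in controls and 34.4, 19.4 and 5.27 CPM in sorted libraries, the lowest being sorted library 3 (edgeR adjusted p = 0.229, and 0.00406 without that library). The list was drawn up with the class II result of these data known, so its count is no independent support.

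ITGAD (gene ID 3681, chr16:31393335-31426505) encodes the integrin alpha D chain, found on macrophages and other leukocytes. It had 0 counts in both controls and 319, 535 and 256 counts in sorted libraries 1 to 3, or 18.0, 19.6 and 13.5 CPM. Against a floor of 3 counts per control library this was at least 167-fold higher, the wider of the 2 such bounds in the set. Alpha D is known to pair with the beta 2 chain, and ITGB2, which encodes beta 2, had 0 counts in all 5 libraries. ITGAM and ITGAL, the alpha chains of other beta 2 integrins, were at most 0.685 CPM in every library.

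The protein-coding gene nearest to ITGAD on chromosome 16, COX6A2 at 1225 bp, had 0 counts in all 5 libraries. ITGAX, its neighbor on the other side at 10335 bp and a close paralog of ITGAD, rose in the sorted libraries. It went from 3.19 and 3.15 CPM in controls to 33.8, 33.5 and 27.4 CPM in sorted libraries (log2 fold change 3.73 ± 0.24 SE, edgeR adjusted p = 0.00741). Shared reads between such paralogs could be split by the counting, so the level of each is uncertain. Of the other 19 integrin genes tested, edgeR called 2 higher, ITGAX and ITGA7, and 0 lower (6 higher and 1 lower at an unadjusted p under 0.05, 5 and 1 by DESeq2). ITGA7, a laminin-binding chain, had 21.2 and 19.1 CPM in controls and 58.6, 69.6 and 46.3 CPM in sorted libraries (adjusted p = 0.0152). Its call did not hold on the log2(TPM + 1) and log2(TPM + 0.1) scales.

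ICAM4 (gene ID 3386, chr19:10286955-10288520), the Landsteiner-Wiener blood group protein and an integrin ligand of red cells, had 0.275 and 0.201 CPM in controls and 6.60, 6.95 and 11.5 CPM in sorted libraries, a pooled ratio of 34.5 (20.4 to 63.6). ICAM5, a neuronal adhesion protein encoded 1431 bp away, rose with it, from 5.66 and 10.4 CPM to 59.5, 65.4 and 81.9 CPM (log2 fold change 3.59 ± 0.45 SE, edgeR adjusted p = 0.0220). ICAM1, the broadly used ligand of beta 2 integrins, was lower in every sorted library. It had 20.3 and 23.8 CPM in controls and 8.24, 8.82 and 6.79 CPM in sorted libraries. It missed the threshold (edgeR adjusted p = 0.0531, and 0.00292 without sorted library 3). ICAM3 had 9.23 and 9.58 CPM in controls and 9.48, 13.4 and 25.9 CPM in sorted libraries, and ICAM2 had 0 counts in both controls and 0.421 to 1.21 CPM in sorted libraries.

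TNFRSF8 (gene ID 943, chr1:12063303-12144207) encodes CD30, a receptor of the tumor necrosis factor family known from activated lymphocytes. It was at 0.412 and 0.905 CPM in controls and 3.50, 4.17 and 4.32 CPM in sorted libraries, a pooled ratio of 6.09 (4.34 to 8.77), and control 3 brought it closer to the control cutoff than any other member. Of 7 other receptors of the family that signal through TRAF adaptors tested, edgeR called 2 higher, CD40 and LTBR, and 0 lower (3 higher and 0 lower at an unadjusted p under 0.05, and the same by DESeq2). CD40 had 6.86 and 6.07 CPM in controls and 13.2, 17.7 and 16.1 CPM in sorted libraries (adjusted p = 0.0443, edgeR), and LTBR 4.22 and 5.66 against 16.0, 13.1 and 10.4 CPM (adjusted p = 0.0253, edgeR).

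Secreted and matrix proteins formed the next group. SCUBE3 (gene ID 222663, chr6:35213956-35253079), a secreted EGF-like protein of the cell surface, had 0.412 and 0.402 CPM in controls and 40.1, 29.9 and 20.1 CPM in sorted libraries. The pooled ratio was 73.3 (49.1 to 115), and sorted library 3 was the lowest of the sorted libraries. CLEC3B (gene ID 7123, chr3:45026303-45036071) encodes tetranectin, a plasminogen-binding lectin-like protein of plasma and matrix. It had 0.172 and 0.637 CPM in controls and 18.7, 18.8 and 22.3 CPM in sorted libraries, a pooled ratio of 48.7 (32.6 to 76.3), and was the highest member per transcript length at 21.4 ± 3.02 TPM (SD, n = 3).

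The relatives of these secreted proteins were split. MATN2, an EGF-repeat protein of the matrix, rose from 22.5 and 26.2 CPM to 80.5, 89.3 and 90.4 CPM (edgeR adjusted p = 0.0208), and was the only one called of the other 3 SCUBE and EGF-like genes tested, though not on the TPM scales. Of the other 3 C-type lectin genes tested edgeR called 0 (0 higher and 2 lower at an unadjusted p under 0.05, 0 by DESeq2), and CLEC3A, the nearest relative of CLEC3B, had at most 0.103 CPM.

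SLPI (gene ID 6590, chr20:45252239-45254564), a secreted inhibitor of leukocyte proteases, had 0 counts in both controls and 132, 96 and 183 counts in sorted libraries, or 7.45, 3.51 and 9.64 CPM. Against the floor of 3 counts per control library it was at least 67.5-fold higher. PI3, which encodes elafin, an elastase inhibitor of the same whey acidic protein family, rose from 14.3 and 10.7 CPM to 58.6, 33.7 and 45.2 CPM (log2 fold change 2.30 ± 0.36 SE, edgeR adjusted p = 0.0301). Both genes were lowest in sorted library 2 among the sorted libraries. SERPINA1, the plasma inhibitor alpha-1-antitrypsin, also rose, from 1.48 and 0.402 CPM to 19.1, 18.5 and 13.8 CPM (edgeR adjusted p = 0.0224), and missed the set because of control 2.

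COL4A1 (gene ID 1282, chr13:110148963-110307157), a chain of basement membrane collagen, was at 0 and 0.670 CPM in controls and 11.1, 10.1 and 5.85 CPM in sorted libraries. Its partner chain COL4A2, encoded head to head with it 126 bp away, had 5.90 and 8.11 CPM in controls and 14.1, 13.6 and 5.53 CPM in sorted libraries, so the groups overlapped at sorted library 3 (edgeR adjusted p = 0.133, and 0.00406 without that library). Its values per length were less even. Its TPM was 1.75, 0.740 and 0.273 in sorted libraries 1 to 3, a wider spread than its CPM, and the transcript length implied by count and FPKM was 7059 bases in sorted library 1 against 14462 and 15597 bases in the others, so its level per length is uncertain.

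Receptors and membrane proteins were closer to the cutoffs. LPAR6 (gene ID 10161, chr13:48389571-48444669), a receptor for lysophosphatidic acid, had 0.721 and 0.469 CPM in controls and 3.89, 3.55 and 3.95 CPM in sorted libraries. LPAR6 lies within RB1, which had 47.2 and 57.0 CPM in controls and 31.3, 29.6 and 11.5 CPM in sorted libraries, lower in each sorted library (edgeR adjusted p = 0.182). LPAR1, another receptor for the same lipid, rose from 19.1 and 18.6 CPM to 65.8, 49.7 and 46.1 CPM (edgeR adjusted p = 0.0177), and LPAR3 and LPAR5 had 0 counts in all 5 libraries. PTGFR (gene ID 5737, chr1:78490974-78540701), the prostaglandin F receptor, had 0.378 and 0.201 CPM in controls and 4.74, 3.11 and 3.42 CPM in sorted libraries. None of the other 5 prostanoid receptor genes tested passed the edgeR threshold (1 was higher at an unadjusted p under 0.05, and DESeq2 called 1).

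TSPAN15 (gene ID 23555, chr10:69451465-69549508), a tetraspanin that escorts the protease ADAM10, sat on both edges of the rule. It had 0.858 and 0.570 CPM in controls and 4.52, 3.40 and 3.00 CPM in sorted libraries, where 57 counts in sorted library 3 carry a 95% counting interval of 43.2 to 73.9 counts. Of the other 5 tetraspanins of its group tested edgeR called 0 (1 higher and 1 lower at an unadjusted p under 0.05, 1 higher by DESeq2). CLDN7 (gene ID 1366, chr17:7259903-7263213), a claudin of epithelial junctions, had 0.618 and 0.804 CPM in controls and 4.23, 6.26 and 6.22 CPM in sorted libraries, a pooled ratio of 7.98 (5.79 to 11.3). Of the other 6 claudins tested edgeR called 0 (1 higher and 1 lower at an unadjusted p under 0.05, and the same numbers by DESeq2), and CLDN12, the most abundant of them, had 106 and 105 CPM in controls and 42.5, 50.2 and 43.7 CPM in sorted libraries (edgeR adjusted p = 0.0918).

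Cytoskeletal, ciliary and trafficking proteins made the next group. KRT8 (gene ID 3856, chr12:52897191-52949860), an intermediate filament protein of simple epithelia, had 0.240 and 0.302 CPM in controls and 3.95, 4.61 and 3.42 CPM in sorted libraries, a pooled ratio of 15.02 (9.08 to 26.7). Its filament partner KRT18 had 0.755 and 0 CPM in controls and 0.395, 0.841 and 0.895 CPM in sorted libraries, with no separation of the groups. EPCAM, the epithelial adhesion marker, was at 1.30 and 1.34 CPM in controls and at 0, 0.293 and 0.105 CPM in sorted libraries.

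DYDC2 (gene ID 84332, chr10:80344745-80368073), a protein with a DPY30 motif, had 0.480 and 0.536 CPM in controls and 14.2, 11.9 and 34.1 CPM in sorted libraries. Sorted library 3 was 2.62 times the mean of the other sorted libraries, the largest such ratio in the set. DYDC1, which overlaps it, and FOXJ1, the regulator of motile cilia, had 0 counts in all 5 libraries. EFCAB1 (gene ID 79645), an EF-hand protein of cilia on chromosome 8, was lower, with 0.824 and 0.704 CPM in controls and 4.57, 3.44 and 3.63 CPM in sorted libraries.

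TPPP3 (gene ID 51673, chr16:67389809-67393498), a tubulin polymerization protein, was uneven in the controls at 0.103 and 0.670 CPM and had 3.67, 3.18 and 4.11 CPM in sorted libraries. MTUS2 (gene ID 23281, chr13:28819963-29505947), a microtubule tip protein, had 0.378 and 0.503 CPM in controls and 7.22, 5.67 and 7.80 CPM in sorted libraries, while its relative MTUS1 was at 0 in all but sorted library 3, where it had 0.316 CPM. SNCG (gene ID 6623, chr10:86955759-86963258), gamma-synuclein, a neuronal protein also known from carcinomas, had 0 and 0.603 CPM in controls and 5.48, 5.41 and 4.53 CPM in sorted libraries.

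DENND2A (gene ID 27147, chr7:140518419-140641460), a DENN domain protein that activates a Rab GTPase of membrane traffic, had 0.240 and 0 CPM in controls and 9.93, 7.83 and 8.11 CPM in sorted libraries. Its pooled ratio was 71.6, but with 7 control counts in all the counting interval ran from 34.5 to 179. Of the other 12 DENN domain genes tested edgeR called 0 in either direction (3 higher and 1 lower at an unadjusted p under 0.05, and 1 higher by DESeq2), and their median log2 fold change was -0.06.

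Enzymes and maturation factors were the fewest. HOGA1 (gene ID 112817, chr10:97584389-97612802), a mitochondrial enzyme of hydroxyproline breakdown, had 0.309 and 0.670 CPM in controls and 5.36, 4.65 and 4.58 CPM in sorted libraries. LMF1 (gene ID 64788, chr16:853634-981613), a factor of lipase maturation in the endoplasmic reticulum, had 0.343 and 0.536 CPM in controls and 4.80, 4.06 and 8.11 CPM in sorted libraries, and its relative LMF2 gave an edgeR adjusted p of 0.955. GALNT15 (gene ID 117248, chr3:16174680-16248224), an enzyme that starts mucin-type glycans, had 0.515 and 0.637 CPM in controls and 3.50, 3.22 and 5.95 CPM in sorted libraries. Of the other 13 GALNT genes tested, GALNT6 rose and GALNT7 fell. GALNT6 had 9.78 and 13.2 CPM in controls and 33.8, 35.3 and 26.9 CPM in sorted libraries (edgeR adjusted p = 0.0200), and GALNT7 100.04 and 107 CPM in controls and 36.6, 35.0 and 21.6 CPM in sorted libraries (edgeR adjusted p = 0.0220).

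**Figure D3:**
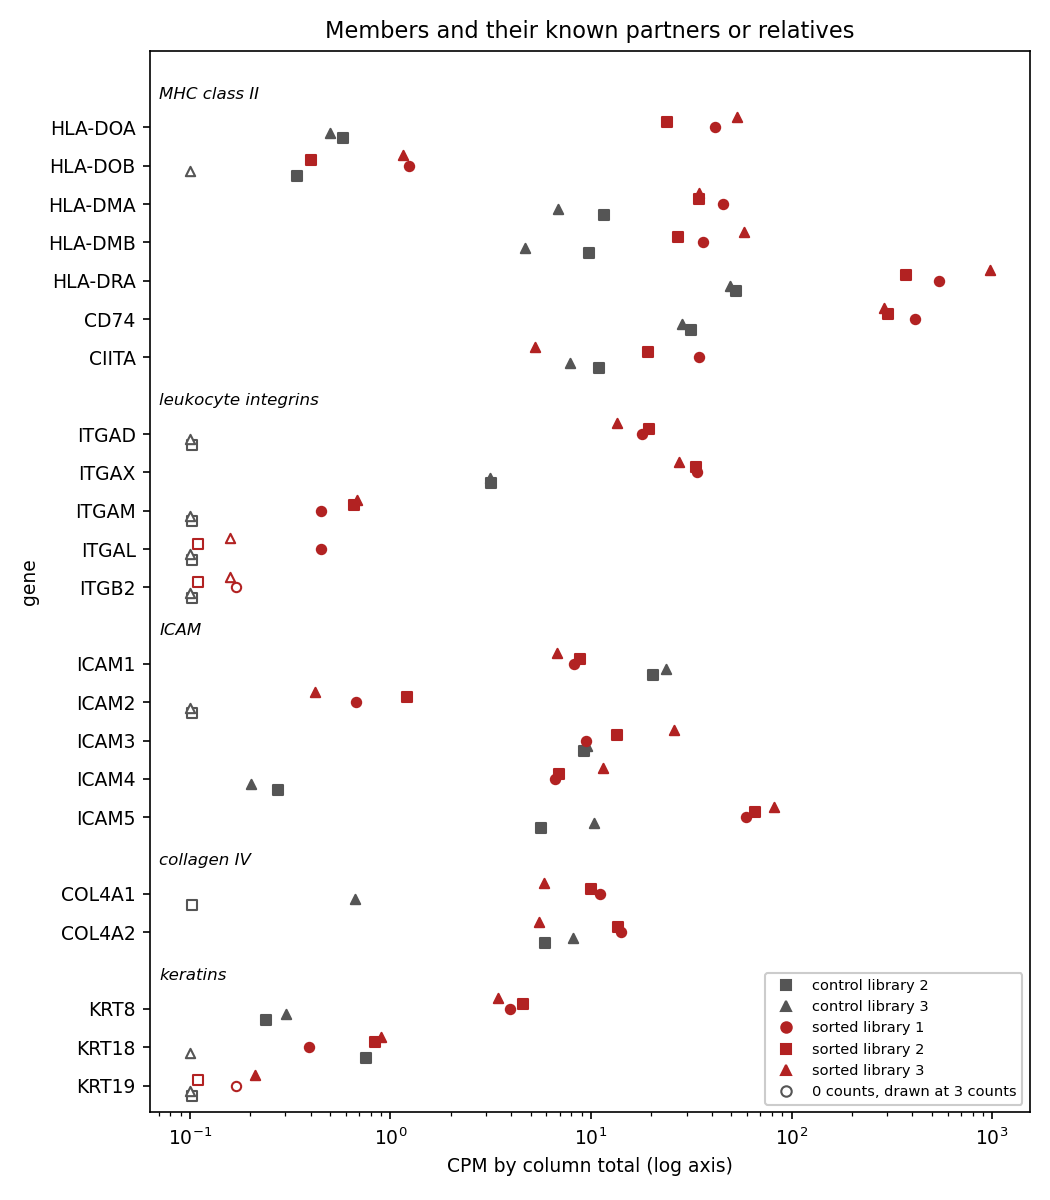
CPM of members and their known partners or relatives in each library on a log axis, 1 point per library, open points drawn at 3 counts where a library had 0 counts. ITGAD and ITGAX are higher in all sorted libraries while ITGB2 has only open points, HLA-DOB and KRT18 stay near or under 1 CPM beside HLA-DOA and KRT8, and ICAM1 lies opposite to ICAM4 and ICAM5.

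The fixed gene lists that held no member were counted as well. Like the other lists they were drawn up with earlier results of these data known, so they are no neutral comparison. Of 10 voltage-gated sodium and calcium channel genes tested edgeR called 0 in either direction (2 higher and 2 lower at an unadjusted p under 0.05, 2 and 1 by DESeq2). Of 21 developmental transcription factor genes 0 were called higher and 1 lower (4 and 3 at an unadjusted p under 0.05, 4 and 2 by DESeq2). The 1 called lower was FOXF1, a factor of mesenchyme, which had 7.04 and 5.80 CPM in controls and 0 counts in all 3 sorted libraries (edgeR adjusted p = 0.0220). Both tested clade A serpin genes, SERPINA1 and SERPINA6, were called higher, and SERPINA6, which binds glucocorticoids in plasma, had 1.37 and 1.14 CPM in controls and 3.84, 4.17 and 3.74 CPM in sorted libraries (edgeR adjusted p = 0.0453), a call that was lost with library size alone, with the replicate block (adjusted p = 0.117) and on both TPM scales.

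Markers of the cell types in which some members are known were counted list by list. For myeloid cells, where alpha D and class II are normally found, AIF1, TYROBP, C1QA, C1QB and C1QC had 0 counts in all 5 libraries, PTPRC had 0 counts except 0.158 CPM in sorted library 3, and SPI1 was read only in control 2. Of the 16 myeloid markers 6 were tested and 2 rose, CD68 and ITGAX, and the summed level was 132 to 175 CPM in controls and 197 to 315 CPM in sorted libraries, of which CD68 made 123 to 163 and 169 to 272 CPM. Of 12 lymphocyte markers 10 were at 0 in all libraries, and so were all 10 autosomal erythroid markers.

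For epithelial cells, KRT8 and CLDN7 are themselves among the 10 markers, and the other 8 summed to 1.54 to 2.37 CPM in controls and 0.790 to 2.32 CPM in sorted libraries. For multiciliated cells, DYDC2 is a marker, FOXJ1, RSPH1, TEKT1 and DYDC1 were at 0 in all libraries, and the other 9 summed to 2.02 to 3.35 CPM in controls and 2.37 to 4.50 CPM in sorted libraries. For endothelial cells, which make type IV collagen, 10 markers summed to 18.0 to 19.2 CPM in controls and 5.85 to 9.88 CPM in sorted libraries, with TEK called lower. Of 10 fibroblast and pericyte markers COL1A2 and ACTA2 were called higher and LUM lower, with sums of 257 to 314 CPM in controls and 331 to 666 CPM in sorted libraries, and their part in the levels of matrix members was not tested. Of 11 neuronal markers, listed beside SNCG, 5 were tested and 0 called (1 higher at an unadjusted p under 0.05 and 1 by DESeq2), with sums of 160 to 211 CPM in controls and 117 to 192 CPM in sorted libraries, and RBFOX3 and STMN2 at 0 counts in all 5.

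The 3 sorted libraries did not rank the members alike. In CPM, 8 members were highest in sorted library 1, 3 in library 2 and 11 in library 3, and 4, 11 and 7 were lowest there. In CPM by column total, the median coefficient of variation among sorted libraries was 19.7% over the members. It was 26.4% over the 9236 protein-coding autosomal genes expressed in them. The spread depends on the scale. On TMM-normalized CPM the SD among sorted libraries was 27.0 for HLA-DOA, against 14.96 in CPM, and 0.994 for ITGAD, against 3.16. These medians therefore do not show that the members were steadier. Sorted library 3, whose protein-coding share was low, had a median of 0.683 times the mean of libraries 1 and 2 over those 9236 genes, but 1.09 over the members. Of the members 12 lay above 1, against 20.8% of those genes. The members had to reach 3 CPM in that library as well, so this share is a description.

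Within the set that library was uneven. DYDC2 (2.62 times), LMF1 (1.83), GALNT15 (1.77), SLPI (1.76), ICAM4 (1.69) and HLA-DOA (1.63) were well above the other sorted libraries in it. COL4A1 (0.552 times), SCUBE3 (0.575) and ITGAD (0.718) were below them, although on the scale of TMM-normalized CPM ITGAD was at 1.04 times and no longer below. On that scale, which is the scale of the edgeR fit, 18 members were highest in sorted library 3 and 2 were lowest there.

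The members were not neighbors of each other. The nearest protein-coding gene on each side that is not a member gave 44 genes, and none of the nearest genes was itself a member. Of these neighbors 32 were tested, edgeR called 5 higher, against 2.2% of all tested genes, and 0 lower (11 higher and 2 lower at an unadjusted p under 0.05, 8 and 1 by DESeq2). Over all 16304 tested genes, 1997 were higher and 2211 lower at that unadjusted p. The 5 were ICAM5 next to ICAM4, ITGAX 10335 bp from ITGAD, HLA-DPA1 54977 bp from HLA-DOA, ITM2B 119213 bp from LPAR6 and SNAI2 182286 bp from EFCAB1. The first 3 are relatives of their member. ITM2B, a membrane protein gene, had 47.1 and 54.1 CPM in controls and 84.3, 92.4 and 58.4 CPM in sorted libraries (edgeR adjusted p = 0.0340), and SNAI2, a regulator of the mesenchymal state, 41.3 and 43.7 against 95.4, 70.2 and 67.9 CPM (edgeR adjusted p = 0.0334). Neither call held with scaling by library size alone, with the replicate block or on the TPM scales.

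**Figure D4:**
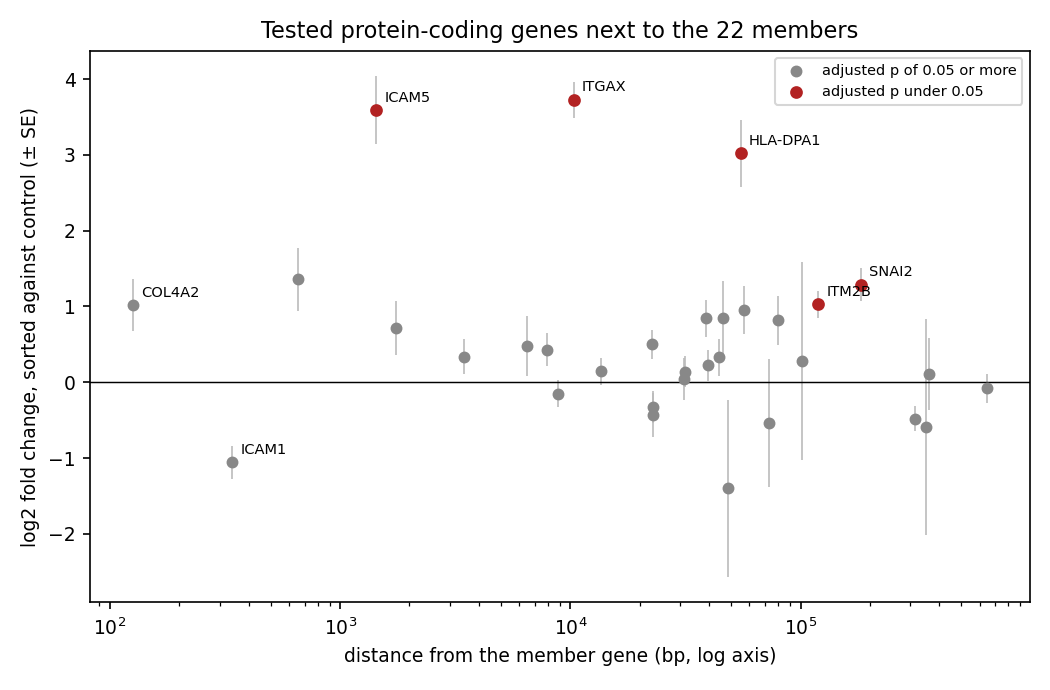
Log2 fold change, sorted against control, with its SE for the 32 tested protein-coding neighbors of members, against their distance from the member in bp on a log axis; red points passed an adjusted p of 0.05 in edgeR. ICAM5, ITGAX and HLA-DPA1 lie near 3 to 4 on the log2 scale, and the median over all 32 is 0.33.

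Most neighbors were not called. Of the 44 neighbors 13 were under 1 CPM in all libraries, 6 of these with 0 counts, and the median log2 fold change of the tested ones was 0.33. ICAM4 sits between ICAM1, 339 bp away, and ICAM5, and in CPM the first was lower and the second higher in every sorted library than in both controls. MMRN2, which overlaps SNCG, had 3.05 and 2.78 CPM in controls and 5.36, 4.57 and 6.90 CPM in sorted libraries (edgeR adjusted p = 0.114). In all 13 members overlapped another gene of the table and 7 a protein-coding one, and since the strand setting of the counting is not given in the sources used here, reads of overlapping genes cannot be told apart. DYDC1, the protein-coding gene that overlaps DYDC2, had 0 counts in all libraries, and C10orf62, which overlaps HOGA1, had at most 0.293 CPM.

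By chromosome, 4 members lay on chromosome 10 (DYDC2, SNCG, HOGA1 and TSPAN15), 18.2% of the set against 3.84% of protein-coding autosomal genes. Chromosomes 13 (LPAR6, MTUS2 and COL4A1) and 16 (ITGAD, TPPP3 and LMF1) held 3 each. Of all 634 genes tested on chromosome 10, edgeR called 13 higher and 36 lower, with a median log2 fold change of -0.18. On chromosome 13 it called 4 higher and 14 lower of 292, with a median of -0.36, and on chromosome 16 it called 23 higher and 9 lower of 696, with a median of 0.13.

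The cutoffs fell among genes of similar level. Just inside the control cutoff lay TNFRSF8 (0.905 CPM in its higher control), TSPAN15 (0.858) and EFCAB1 (0.824), and just outside it CSTA (1.01), TVP23A (1.03) and SLCO2B1 (1.17). Just inside the sorted cutoff lay TSPAN15 (3.00 CPM in its lowest sorted library), PTGFR (3.11) and TPPP3 (3.18), and just outside it NYAP1 (2.82), PPBP (2.56) and CACNA1G (2.48). With values per length the set shrank: the same cutoffs on the authors' TPM gave 6 genes, 5 of them members. HLA-DOA, DYDC2, SLPI, ICAM4 and SNCG were kept by every scaling and unit tried, and these 5 are the members least tied to the choice of CPM.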

How the data were processed

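Total RNA of 2 control and 3 CD133-positive sorted libraries of U87 MG was made into libraries with a stranded kit, per the labels' protocols. The authors deposited 3 values per gene and library, named per the file headers: an estimated count in whole numbers, not normalized, FPKM and TPM. The submitters' processing notes name the build GRCh38 and StringTie; no source used here states the aligner, annotation release or strand setting.

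From the deposited counts, CPM was computed by column total, and the members and gene lists were chosen with earlier results of these data known. The families of single members were listed after their values were seen. Names, positions and promoter windows came from RefSeq (GRCh38.p14), matched by gene ID for 96.3% of the genes. Genes without a RefSeq position (154 protein-coding) could not be placed on a chromosome. They were kept among the 18778 genes called autosomal and left out of the shares by chromosome.

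Counts were tested with edgeR 4.0.16 (R 4.3.3): filterByExpr, TMM scaling, robust quasi-likelihood F test on group alone, Benjamini-Hochberg adjustment over 16304 genes, threshold 0.05. The standard error (SE) is the absolute log2 fold change over the square root of F. The test was tried on simulated data. Alternatives were DESeq2 1.42.0, limma 3.58.1, other scalings and filters, other cutoffs and leaving out each library. Counting intervals (exact, 95%) and the floor of 3 counts cover counting error only. The lowest chi-square per degree of freedom between libraries of a group was 21.3, so none is a plain copy of another. This value cannot show whether they came from separate cultures. Named genes are all members, those nearest each cutoff, and up to 4 genes per list with the smallest adjusted p or the 2 most abundant; ITGAM, ITGAL, ITGB2, CIITA, HLA-DOB and other partners named beside a member were chosen after their values were seen.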

Additional observations from a re-analysis of the deposited data

How the results depend on the processing

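The number of members depended on the unit and cutoffs more than on the scaling. It was 22 as reported, 29 with TMM or RLE scaling, 31 with the protein-coding total, 6 with the authors' TPM, 10 with FPKM, 7 with a control cutoff of 0.5 CPM, 2 with 0 control counts, 9 with a sorted cutoff of 5 CPM and 36 with 2 CPM, and 24 to 34 with a library left out. The cause of these differences beyond the construction of each alternative was not tested.

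Calls over all genes depended on tool and library. Higher in sorted cells were 359 genes as reported, 113 with library size alone, 1429 by DESeq2, 617 by limma-voom, 98 and 60 by limma on log2(TPM + 1) and log2(TPM + 0.1), and 9 at 0.01. Lower were 392 as reported, 1331 by DESeq2, 873 by limma-voom, 1508 on log2(TPM + 1) and 5 at 0.01. With a library left out they ranged over 0 to 2477 higher and 0 to 2695 lower. Members called ranged over 0 to 22, with 11 on log2(TPM + 0.1) and 2 at 0.01. Library size alone moved the all-gene median of log2 fold changes from -0.00 to -0.40, which is the size by which fold changes shift on that scale.

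Of the genes in the lists outside the set 15 were called higher as reported, 28 by DESeq2, 2 at 0.01 and 0 to 36 with a library left out. Called lower was 1, against 3 with no filter, 2 with a CPM filter, 5 by DESeq2, 4 by limma-voom, 2 with protein-coding genes alone, 11 on log2(TPM + 1), 3 on log2(TPM + 0.1), 0 at 0.01 and 0 to 13 with a library left out. Of the neighbors 5 were called higher, against 3 with library size alone and on either TPM scale, 8 by DESeq2, 1 at 0.01 and 0 to 12 with a library left out. Neighbors called lower were 0 as reported, 1 with no filter, with a CPM filter, by DESeq2, by limma-voom and with protein-coding genes alone, 2 on log2(TPM + 1) and 0 to 2 with a library left out.

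The replicate numbers 2 and 3 occur in both groups, and same-numbered libraries correlated at 0.05 and 0.0661 in their deviations from the group mean. With 2 controls the deviations of the first mirror those of the second, so these values cannot decide whether same-numbered libraries were paired. With a replicate block edgeR called 192 genes higher and 219 lower, 18 members, 14 list genes higher and 3 lower, and 3 neighbors higher. No member changed sign under the alternatives run, but the cutoffs of the rule left little room for that, so nothing is read from it. Among named genes outside the set, none that was called in either of the fits compared changed sign. Control counts of 0 to 27 per member and library limit the precision of every ratio given.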

Other observations

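Under the same CPM cutoffs 4 long non-coding RNA genes on autosomes also qualified, TMEM132D-AS1, LOC100506258, LOC100507065 and LOC105371275. LOC105371275 had 0.446 and 0 CPM in the controls and 15.8, 11.7 and 14.0 CPM in the sorted libraries. TMEM132D-AS1 had 0 counts in both controls and 56, 155 and 72 counts in the sorted libraries. What these transcripts do is not annotated in the sources used here.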
